A study of Mus musculus with 4 samples.

Results

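The leukocyte integrin genes described here are the 10 chain genes Itgam, Itgax, Itgal, Itgb2, Itga4, Itgb7, Itgb1, Itga1, Itga5 and Itga6, taken by symbol from a count table of 55487 mouse genes; all 10 were found, and all 10 passed the filter on low counts. Poly(A) RNA was sequenced from sorted liver myeloid cells of 2 genotypes of mice, LysM-Cre IL10R fl/fl (n = 2) and LysM-Cre IL10R wt/wt (n = 2). Both genotypes carry LysM-Cre, a Cre recombinase under control of Lyz2, a gene that granulocytes, monocytes and macrophages express; in fl/fl mice the interleukin-10 receptor gene is flanked by loxP sites, and in wt/wt mice it is not. The gate took CD45-positive, CD11b-positive cells and left out those with CD3 or CD11c, so that the proteins of Itgam (CD11b) and Itgax (CD11c) set the gate in both genotypes. The labels give neither the age nor the sex of the mice, nor whether the libraries of a genotype came from separate animals. The fl/fl libraries differed in sex-linked transcripts, as given below with their counts, and so came from different animals, while the spread between the wt/wt libraries may be technical.

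Integrins are surface receptors made of an α and a β chain, and a chain generally reaches the surface as part of such a pair. The β2 chain (CD18) pairs with αL, αM, αX and αD, and these β2 integrins let leukocytes stop on endothelium through ICAM ligands and take up complement-coated particles. The α4 chain pairs with β1 for binding VCAM-1 and fibronectin and with β7 for binding MAdCAM-1. The β1 chain also pairs with α5, the classical fibronectin receptor chain, with α6 for laminins and with α1 for collagens. Inside the cell, talin and kindlin bind the β tails and switch the pair to its high-affinity state.

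Total counts were 17750343 and 17154042 in fl/fl libraries 1 and 2, and 22694136 and 26441014 in wt/wt libraries 1 and 2. Levels are given as CPM, counts relative to library size after scaling by the trimmed mean of M values (TMM), and across chains as RPKM, the CPM per kilobase of merged exons. Il10ra, taken as the targeted gene since the labels name no chain, was at 69.3 and 14.8 CPM in fl/fl and at 1111 and 993 CPM in wt/wt (log2 fold change −4.64, adjusted p = 0.0193, from edgeR's quasi-likelihood F test; −6.18 when fl/fl 1 was left out and −3.92 when fl/fl 2 was left out). The fl/fl libraries differed in sex: only fl/fl 2 held Xist (4298 counts), and the sum over 4 Y-linked genes was 1 there and 3455 to 6562 elsewhere. Markers of granulocytes were higher in fl/fl, above all in fl/fl 1. Of 8 granulocyte precursor markers 7 rose in edgeR, beside 2.69% of all 13496 tested genes called higher. The 8 precursor markers summed to 1675 and 552 CPM in fl/fl and 62.6 and 53.6 CPM in wt/wt. Of 10 neutrophil markers 9 rose, their sums being 36168 and 16725 CPM in fl/fl, against 3075 and 3737 CPM in wt/wt. Much of the fl/fl sums was S100a9 (12617 and 5566 CPM) and S100a8 (8792 and 3084 CPM). Ly6g, also called higher, was at 108 and 48.7 CPM in fl/fl and 4.67 and 8.22 CPM in wt/wt. Classical monocyte markers summed to 14772 and 7428 CPM in fl/fl, against 5088 and 4643 CPM in wt/wt, with 2 of 6 higher, Hp and Mgst1. Much of that sum was Chil3 (8404 and 2069 CPM in fl/fl, 1370 and 714 CPM in wt/wt), which did not pass, and Ccr2 was at 1304 and 1567 CPM in fl/fl and 1640 and 1723 CPM in wt/wt, also without passing. T cell markers summed to at most 3.54 CPM. In bulk RNA from sorted cells, a smaller share of cells of a type and less RNA per cell cannot be told apart, and the part of these markers in the integrin results was not tested.

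Of the 10 leukocyte integrin genes, Itgax, Itga5 and Itga6 were lower in fl/fl, and none was called higher by the edgeR test. Across all 13496 tested genes, 3.16% were called lower and 2.69% higher, 5.85% in all. Of the 13496, 3040 had an unadjusted p under 0.05 in edgeR, in either direction. At an unadjusted p under 0.05, edgeR had 1 member higher, Itgb7, which DESeq2 also called higher; limma-voom called none higher. DESeq2 called 4 of the 10 members, 3 lower and 1 higher, against 12% of all tested genes in either direction and 5.81% higher. The median log2 fold change of the 10 members was −0.16, against 0.02 over all tested genes. The summed level of the 10 members was nearly the same in the 4 libraries, at 3102 and 3079 CPM in fl/fl and 3082 and 3117 CPM in wt/wt. Libraries of the genotypes did not overlap for 4 members, Itgb7 above and Itgax, Itga5 and Itga6 below, as for 28.1% above and 26.3% below among all tested genes, 54.4% together.

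**Figure D1:**
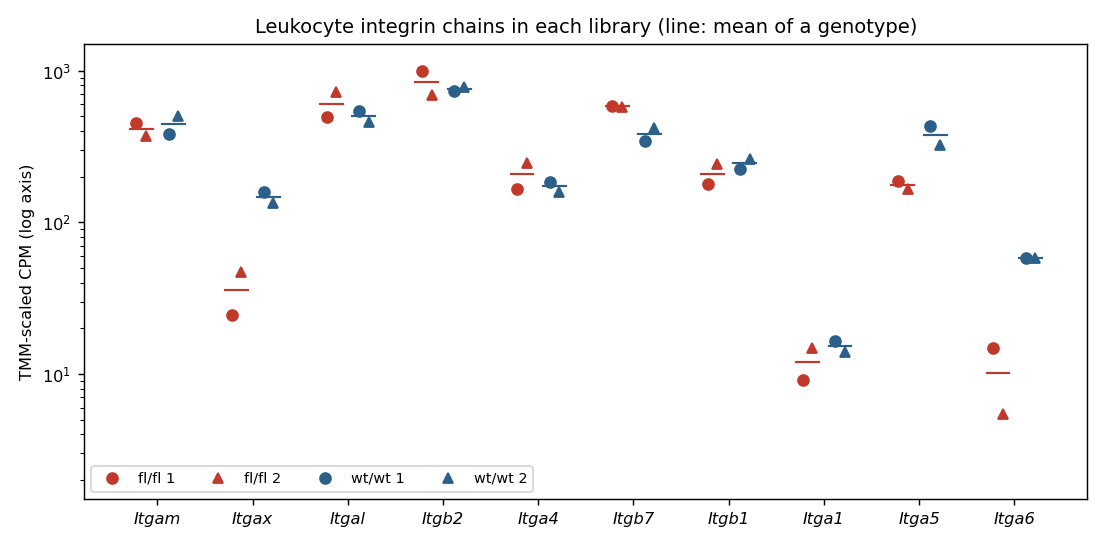
TMM-scaled CPM on a log axis for the 10 leukocyte integrin genes, with fl/fl libraries in red left of wt/wt libraries in blue; circles are replicate 1, triangles replicate 2 and lines the mean of a genotype. Itgax, Itga5 and Itga6 lie lower in both fl/fl libraries, Itgb7 lies higher, and the other 6 genes overlap.

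The shared β2 chain and its abundant α partners did not pass the test. Itgb2, which encodes the β2 chain and lies on chromosome 10 of GRCm38 from 77530252 to 77565708 on the plus strand, was at 990.3 and 692 CPM in fl/fl 1 and 2 and at 737 and 782 CPM in wt/wt 1 and 2. The fl/fl libraries lay on either side of both wt/wt libraries (log2 fold change 0.15 ± 0.21, SE; adjusted p = 0.752, edgeR). Itgam, the αM chain of complement receptor 3, was at 454 and 368 CPM in fl/fl and at 383 and 501 CPM in wt/wt. Its libraries overlapped between the genotypes, with a log2 fold change of −0.11 ± 0.20 (SE; adjusted p = 0.821, edgeR). Itgal, the αL chain of LFA-1, was at 494 and 719 CPM in fl/fl and at 544 and 459 CPM in wt/wt (log2 fold change 0.27 ± 0.22, SE; adjusted p = 0.534, edgeR). The fl/fl 2 library was the highest of the 4 for Itgal and the lowest of the 4 for Itgb2 and Itgam.

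Itgax, the αX chain of complement receptor 4 and the CD11c marker of dendritic cells and some macrophages, stood apart from its β2 partners. It was at 24.6 and 47.1 CPM in fl/fl, from 423 and 826 counts, and at 158 and 134 CPM in wt/wt, from 3519 and 3630 counts. Both fl/fl libraries were below both wt/wt libraries, by 4.06-fold on the fitted scale (log2 fold change −2.02 ± 0.31, SE; adjusted p = 0.0197, edgeR). The transcript was thus present in all libraries of cells sorted as CD11c negative. Dendritic cell markers were low. Of 6 tested, 0 were called by edgeR or limma-voom, with 2 at an unadjusted p under 0.05 in edgeR, and DESeq2 called 1 lower, Cd209a, at 6.52 and 18.8 CPM in fl/fl and 26.4 and 34.7 CPM in wt/wt. Flt3, the other abundant marker, was above in both fl/fl libraries, at 23.7 and 20.1 CPM in fl/fl and 12.1 and 17.2 CPM in wt/wt, without passing (log2 fold change 0.58). The list had summed levels of 32.4 and 44.4 CPM in fl/fl and 45.0 and 56.9 CPM in wt/wt. The defining genes Xcr1, Clec9a and Zbtb46 did not exceed 2.68 CPM in any library, and Siglech was at 0 in all. The macrophage complement genes C1qa, C1qb and C1qc were also called lower in fl/fl, at log2 fold changes of −3.11, −2.83 and −2.87. They were 3 of 5 tested markers of the Kupffer cell list, beside 3.16% called lower over all tested genes. Within fl/fl the sum of that list was higher in fl/fl 1, while Itgax was higher in fl/fl 2. The summed level of that list was 297 and 207 CPM in fl/fl and 912 and 899.6 CPM in wt/wt, while Adgre1 (F4/80) was at 150 and 156 CPM in fl/fl and 178 and 183 CPM in wt/wt, and Clec4f, Vsig4 and Timd4 were at or under 0.873 CPM everywhere. Low members of the list differed the other way: Cd5l had a log2 fold change of 1.00 without passing, Marco had 8 and 21 counts in fl/fl and 5 and 1 counts in wt/wt, and Vsig4 had 12 and 5 counts in fl/fl and 0 in wt/wt. Over the Kupffer list the median log2 fold change came to −2.83 for the 5 tested genes and 0.98 for all 9 without the filter on low counts. The part of such cells in the level of Itgax was not tested.

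Itgam and Itgax are neighbours. On GRCm38, Itgam lies on chromosome 7 from 128062640 to 128118491 and Itgax from 128129547 to 128150657, both on the plus strand and 11055 bases apart, with Itgad, the αD gene, 3718 bases further on from 128154376 to 128223816. Itgal lies on the same chromosome from 127296260 to 127335138. Itgad had no counts in fl/fl and 4 and 9 counts in wt/wt and was not tested. Of the 4 α genes that pair with β2, therefore, the abundant Itgam and Itgal did not pass and Itgax, the neighbour of Itgam, fell. Itgad was close to the detection floor, where a count of 0 allows up to 0.175 and 0.171 CPM in the fl/fl libraries, counting error only. The exonic bases of Itgam overlap by 68.7% with the same-strand gene Gm49368, which itself had 10 and 3 counts in fl/fl and 3 and 32 counts in wt/wt. Adding those counts to Itgam left its log2 ratio of mean CPM at −0.11. How reads in shared exons were counted is not given in the sources used here. If they were left out, only 1574 exonic bases of Itgam gave counts, which lowers its level in all libraries alike.

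**Figure D2:**
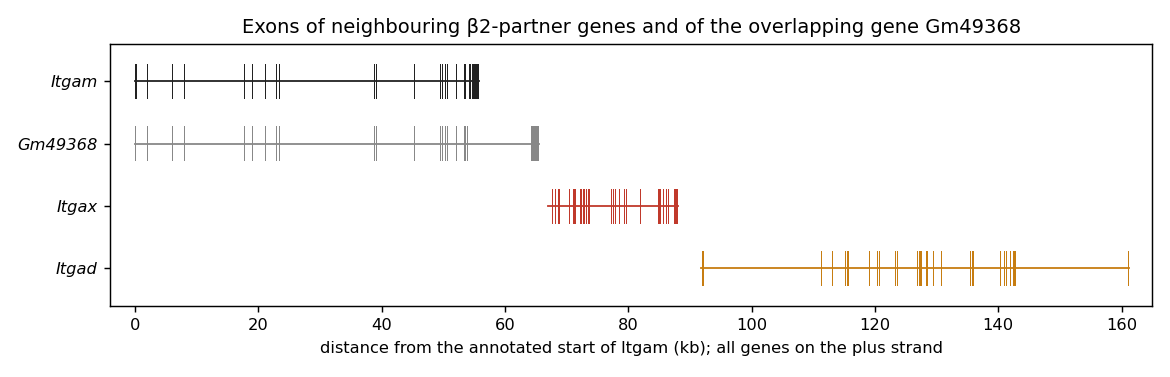
Exons (boxes) of Itgam, Gm49368, Itgax and Itgad on chromosome 7, in kb from the annotated start of Itgam, one gene per row. Gm49368 repeats most exons of Itgam, which is the 68.7% overlap, and Itgax lies 11055 bases beyond the end of Itgam.

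The promoters of 4 chains are shown because they bracket the results: Itgam, which did not pass, its lower neighbour Itgax, the lower β1 partner Itga5, and Itgb2l, the β chain gene that rose. PU.1, encoded by Spi1, is a myeloid transcription factor known in human cells to act at the CD11b promoter. Capitals mark matches to the PU.1 core GAGGAA or its reverse complement TTCCTC and to the AP-1 motif TGAGTCA or its reverse complement TGACTCA, which do not overlap each other here. Each sequence holds the 250 bases before the RefSeq start site on GRCm38.p6, 5′ to 3′ on the strand of the gene.
Itgam, chr7:128062390-128062639, plus strand: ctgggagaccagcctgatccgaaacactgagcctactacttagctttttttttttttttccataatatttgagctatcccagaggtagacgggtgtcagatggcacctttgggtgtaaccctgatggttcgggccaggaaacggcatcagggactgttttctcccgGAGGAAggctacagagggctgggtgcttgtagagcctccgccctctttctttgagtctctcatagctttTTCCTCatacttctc
Itgax, chr7:128129300-128129549, plus strand: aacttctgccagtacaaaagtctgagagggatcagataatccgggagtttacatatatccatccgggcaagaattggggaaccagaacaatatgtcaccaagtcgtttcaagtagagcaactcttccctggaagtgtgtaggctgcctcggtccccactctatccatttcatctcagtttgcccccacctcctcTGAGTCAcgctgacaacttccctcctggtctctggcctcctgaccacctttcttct
Itga5, chr15:103366792-103367041, minus strand: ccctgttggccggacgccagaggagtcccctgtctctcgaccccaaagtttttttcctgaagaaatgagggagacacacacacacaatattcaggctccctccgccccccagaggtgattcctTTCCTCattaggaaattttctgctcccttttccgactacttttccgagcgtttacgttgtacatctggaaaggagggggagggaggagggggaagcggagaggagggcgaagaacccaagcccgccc
Itgb2l, chr16:96443615-96443864, minus strand: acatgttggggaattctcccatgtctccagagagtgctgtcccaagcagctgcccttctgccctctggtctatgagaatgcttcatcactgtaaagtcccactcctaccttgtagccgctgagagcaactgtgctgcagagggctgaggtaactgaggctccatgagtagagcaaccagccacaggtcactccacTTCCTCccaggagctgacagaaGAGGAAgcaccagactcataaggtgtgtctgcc
The window of Itgam held 2 PU.1 core matches, beginning 84 and 15 bases before the start site, and that of Itgb2l held 2, at 55 and 33 bases. Itga5 held 1 such match, and Itgax held none and 1 AP-1 match at 56 bases. The PU.1 core was found in 23.3% and the AP-1 motif in 4.46% of 32851 RefSeq promoters of the same length. RefSeq promoters were matched for 7 of the 10 members, all but Itgal, Itgb2 and Itga6. Among these 7, Itgb1 also held a PU.1 core match, while Itga4, Itgb7 and Itga1 held none. Outside the members, the uncalled Itgav and Itga2b held 2 each. The RUNX motif TGTGGT, or ACCACA on the other strand, was found among the 7 for Itga4 alone, as in 14.0% of all promoters. These matches describe letters, not binding.

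Among the factors known to act at the CD11b, CD11c or CD18 promoters, 3 of 8 fell and none rose by edgeR. Over all tested genes 3.16% were called lower and 2.69% higher. Runx3, a Runt-domain factor of leukocytes, was at 44.9 and 44.4 CPM in fl/fl and at 247 and 191 CPM in wt/wt (log2 fold change −2.29 ± 0.19, SE; adjusted p = 0.00879, edgeR). Runx1, its relative in blood cell formation, was at 72.7 and 71.4 CPM in fl/fl and at 188 and 150 CPM in wt/wt (log2 fold change −1.23). Cebpa, a factor of granulocyte and monocyte commitment, averaged 200.5 ± 0.729 CPM in fl/fl and 329 ± 9.21 CPM in wt/wt (SD, n = 2 each; log2 fold change −0.71, adjusted p = 0.0443, edgeR). Cebpb and Spi1, the most abundant of the list per length, did not pass, at log2 fold changes of 0.30 and 0.42. None of the 8 was called higher by DESeq2 or limma-voom. At an unadjusted p under 0.05 edgeR had 4 of the 8, the fourth being Spi1, higher, beside 3040 of all 13496 tested genes. Cebpa lost its call in 7 of 17 alternatives.

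The α4 and β7 chains, which meet in the gut-homing receptor α4β7, were not called by edgeR. Itgb7 lies on chromosome 15 from 102215995 to 102231944 on the minus strand, and Itga4 on chromosome 2 from 79255426 to 79333123 on the plus strand. Itgb7 was at 584 and 578 CPM in fl/fl and at 346 and 421 CPM in wt/wt. Both fl/fl libraries were above both wt/wt libraries, but the difference did not pass in edgeR (log2 fold change 0.60 ± 0.17, SE; adjusted p = 0.0964). DESeq2 called Itgb7 higher (adjusted p = 0.0272), as did edgeR without the filter on low counts (adjusted p = 0.0311); the adjusted p ranged from 0.0272 to 0.905 over its alternatives. Itga4 was at 167 and 247 CPM in fl/fl and at 185 and 159 CPM in wt/wt. Its libraries overlapped, with fl/fl 2 highest and wt/wt 2 lowest (log2 fold change 0.26 ± 0.22, SE; adjusted p = 0.551, edgeR). Some 8.04% of the exonic bases of Itga4 overlap Cerkl on the opposite strand. Itgae, the other α partner of β7, did not exceed 0.970 CPM in any library.

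Among the β1 integrins, the β1 chain itself did not pass while the α5 and α6 partners fell. On GRCm38 the genes lie on chromosome 8 from 128685654 to 128733200 (Itgb1, plus strand), chromosome 15 from 103344286 to 103366763 (Itga5, minus strand), chromosome 2 from 71745616 to 71858416 (Itga6, plus strand) and chromosome 13 from 114953096 to 115101964 (Itga1, minus strand). Itgb1 was at 178 and 242 CPM in fl/fl and at 226 and 263 CPM in wt/wt, with overlapping libraries (log2 fold change −0.22 ± 0.20, SE; adjusted p = 0.585, edgeR). Itga5 was at 186 and 166 CPM in fl/fl and at 429 and 326 CPM in wt/wt. The lowest wt/wt library was above the highest fl/fl library, and the fitted difference was 2.14-fold (log2 fold change −1.10 ± 0.19, SE; adjusted p = 0.0270, edgeR). Itga6, the α6 chain of the laminin receptors, was at 14.8 and 5.48 CPM in fl/fl, from 255 and 96 counts, and at 57.9 and 57.8 CPM in wt/wt, from 1289 and 1568 counts. It showed the largest fitted change of the 10 members, 5.69-fold lower in fl/fl, at −2.51 ± 0.42 (SE) on the log2 scale with an adjusted p of 0.0252 in edgeR. The wt/wt libraries were almost equal for Itga6, while fl/fl 1 was 2.71-fold above fl/fl 2. Itga1, the collagen-binding α1 chain known from natural killer and tissue-resident T cells, was at 9.14 and 14.8 CPM in fl/fl and at 16.6 and 13.9 CPM in wt/wt and did not pass (log2 fold change −0.35 ± 0.30, SE; adjusted p = 0.563, edgeR). Platelets also carry α6, and of their markers Pf4 fell, at 0.815 and 1.54 CPM in fl/fl and 4.99 and 6.63 CPM in wt/wt. Pf4 was 1 of 3 tested genes of a list of 7, beside 3.16% called lower over all tested genes. The summed level of the list was 4.31 and 4.85 CPM in fl/fl and 7.68 and 11.3 CPM in wt/wt. Gp1bb had no counts in any library. The median log2 fold change of the platelet list was −0.57 over 3 tested genes and 0.54 over 6 without the filter. The part of platelets in Itga6 was not tested. Natural killer cell markers summed to 33.7 and 30.6 CPM in fl/fl and 9.48 and 7.40 CPM in wt/wt. Nkg7, Gzma and Prf1 were higher, 3 of 5 tested, beside 2.69% called higher over all tested genes. The defining gene Ncr1 was lower in both fl/fl libraries, with 1 and 4 counts in fl/fl and 18 and 8 counts in wt/wt, and Klrd1 was at 1.16 and 4.57 CPM in fl/fl and 5.26 and 3.57 CPM in wt/wt without passing. The median log2 fold change of the natural killer list was 3.10 over 5 tested genes and 0.25 over 7 without the filter. The part of such cells in Itga1 was not tested.

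**Figure D3:**
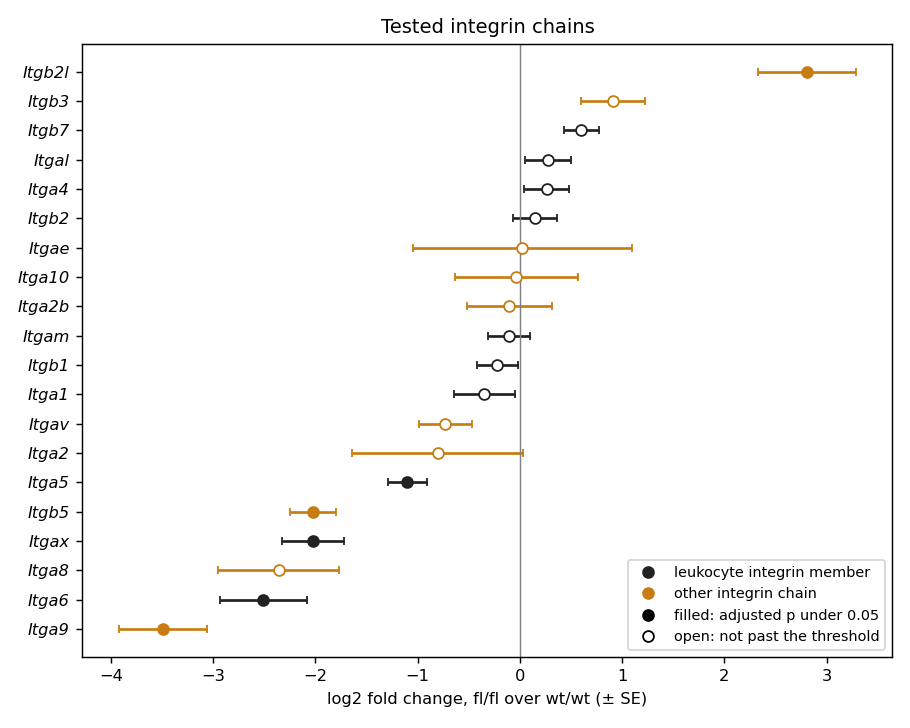
Log2 fold change, fl/fl over wt/wt, with its SE for the 20 tested integrin chains; black marks the 10 leukocyte integrin genes, orange the other integrin chains, and filled points have an adjusted p under 0.05 in edgeR. Itga6, Itgax and Itga5 are the filled black points, all left of 0, and Itgb2l is the filled point right of 0.

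Set side by side per length, Itgb2 and Itgb7 were the highest members in both genotypes and Itga6 and Itga1 the lowest. In fl/fl the mean order in RPKM was Itgb2 at 276 ± 69.1, Itgb7 at 209.8 ± 1.46, Itgal at 92.3 ± 24.2, Itgam at 81.8 ± 12.02, Itgb1 at 51.4 ± 11.01, Itga5 at 35.7 ± 2.91, Itga4 at 14.8 ± 4.07, Itgax at 7.47 ± 3.31, Itga6 at 1.13 ± 0.734 and Itga1 at 0.645 ± 0.217 (SD, n = 2). In wt/wt it was Itgb2 at 249 ± 10.3, Itgb7 at 138 ± 19.2, Itgam at 88.0 ± 16.6, Itga5 at 76.5 ± 14.7, Itgal at 76.3 ± 9.16, Itgb1 at 59.9 ± 6.55, Itgax at 30.4 ± 3.58, Itga4 at 12.3 ± 1.31, Itga6 at 6.41 ± 0.0107 and Itga1 at 0.820 ± 0.104 (SD, n = 2). Neighbours whose libraries overlapped were Itgal with Itgam and Itga6 with Itga1 in fl/fl, and Itgam, Itga5 and Itgal with each other in wt/wt. Itgax was thus below Itga4 in both fl/fl libraries and above it in both wt/wt libraries. With the 1574 bases of Itgam that no other gene shares as its length, Itgam would be at 261 ± 38.4 RPKM in fl/fl and 281 ± 53.1 RPKM in wt/wt (SD, n = 2), among the β chains, so its place in the order depends on how shared exons were counted. With the longest transcript as length, Itga6 would be at 2.36 RPKM in fl/fl and 13.4 RPKM in wt/wt.

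Shares of chains were taken from shares of summed RPKM, as a description without a test. Among the α chains that pair with β2, Itgax made up 3.01% and 5.10% in fl/fl libraries, compared with 17.1% and 14.1% in wt/wt. Itgal made up 44.1% and 56.8% in fl/fl libraries, compared with 43.1% and 35.4% in wt/wt, and Itgam made up 52.9% and 38.1% in fl/fl libraries, compared with 39.7% and 50.5% in wt/wt. Itgax was lower relative to Itgam within each fl/fl library, at 0.0568 and 0.134 RPKM per RPKM of Itgam in fl/fl libraries, compared with 0.431 and 0.279 in wt/wt. Among the α chains that can pair with β1, summed RPKM was 55.4 and 58.6 in fl/fl libraries, compared with 117 and 93.1 in wt/wt, while Itgb1 itself was at 43.6 and 59.2 RPKM in fl/fl and 55.3 and 64.5 RPKM in wt/wt. Itga5 was the largest α chain of that set in all libraries, with 68.2% and 57.3% in fl/fl libraries, compared with 74.3% and 70.9% in wt/wt, and Itga4 had 21.5% and 30.1% in fl/fl libraries, compared with 11.4% and 12.3% in wt/wt. Among the β chains of the member list, Itgb2, Itgb7 and Itgb1, Itgb7 had 36.4% and 42.2% in fl/fl libraries, compared with 29.6% and 32.2% in wt/wt. These shares leave out Itgb5, which was at 43.6 and 29.2 RPKM in fl/fl and 147 and 149 RPKM in wt/wt. Such ratios show unequal change between chains, not which chain changed, and mRNA shares say nothing of pairs on the surface. With unshared exon lengths Itgax would make up 1.39% and 2.78% in fl/fl libraries, compared with 9.16% and 6.69% in wt/wt. Itgam would then be the largest α partner of β2 in every library. Its shares would be 78.2% and 66.2% for fl/fl 1 and 2, compared with 67.8% and 76.5% for wt/wt 1 and 2. Those of Itgal would be 20.4% and 31.0%, compared with 23.0% and 16.8%, in the same order. Itgax per Itgam would also be lower, by the same factor in each library. The order of Itgal and Itgam thus depends on how shared exons were counted.

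**Figure D4:**
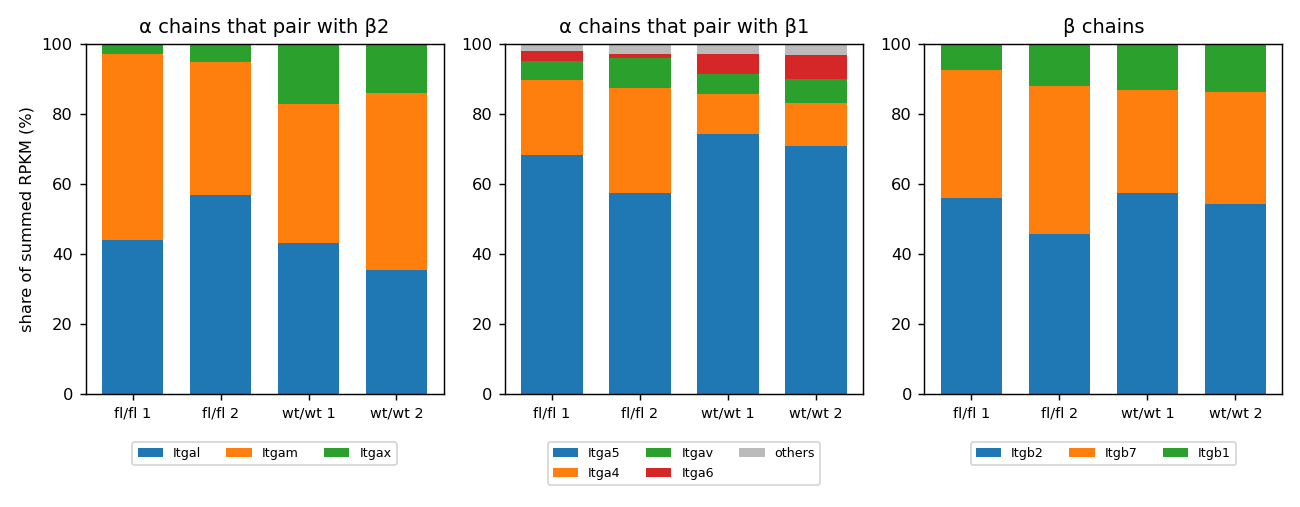
Stacked bars of the share of summed RPKM (%) in each library, fl/fl left of wt/wt, for α chains that pair with β2, α chains that can pair with β1, and the β chains Itgb2, Itgb7 and Itgb1. Itgax (green, left panel) takes 3.01% and 5.10% in fl/fl libraries, compared with 17.1% and 14.1% in wt/wt.

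Beyond the 10 members, 18 further integrin chain and integrin-like genes were found, of which 10 were tested. In edgeR 2 fell, 1 rose and 7 did not pass, beside 3.16% lower and 2.69% higher over all tested genes. DESeq2 called 3 lower and 1 higher, beside 12% of all tested genes in either direction and 5.81% higher. Itgb5, which pairs with αV in a vitronectin receptor used in uptake of dying cells, was at 155 and 104 CPM in fl/fl and at 521 and 529 CPM in wt/wt (log2 fold change −2.02 ± 0.23, SE; adjusted p = 0.0120, edgeR). Itgb5 was the most abundant of these genes per length, and its partner gene Itgav was at 32.0 and 53.8 CPM in fl/fl and at 73.3 and 68.7 CPM in wt/wt without passing (log2 fold change −0.73, adjusted p = 0.155; −1.14 and passing without fl/fl 2). Itga9, whose product pairs with β1, was at 1.22 and 0.628 CPM in fl/fl, from 21 and 11 counts, and at 10.9 and 10.0 CPM in wt/wt, from 242 and 272 counts (log2 fold change −3.49 ± 0.43, SE; adjusted p = 0.0136, edgeR; −4.08 when fl/fl 1 was left out). Itgb2l encodes pactolus, a β2-like chain made by mouse neutrophils. It was at 147 and 49.9 CPM in fl/fl and at 14.3 and 13.8 CPM in wt/wt, with a log2 fold change of 2.81 ± 0.48 (SE) and an adjusted p of 0.0252 in edgeR. Leaving out fl/fl 1 gave Itgb2l a log2 fold change of 1.79, and leaving out fl/fl 2 gave 3.39. In fl/fl 1 the level of Itgb2l was 2.95 times that in fl/fl 2, and the precursor and neutrophil marker sums above were also higher in fl/fl 1; their part in the result was not tested. Itgb3, the β3 chain, was at 13.2 and 23.0 CPM in fl/fl and 9.12 and 10.1 CPM in wt/wt (log2 fold change 0.91, adjusted p = 0.146; 1.22 and passing without fl/fl 1).

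The 2 fl/fl libraries differed more from each other in the members than the 2 wt/wt libraries did. The larger of the 2 library values was 1.01 to 2.71 times the smaller in fl/fl, with a median of 1.44, and 1.00 to 1.32 times in wt/wt, with a median of 1.18. In fl/fl the widest gap was in Itga6 and the narrowest in Itgb7. Itgax and Itga6, both lower in fl/fl, differed in opposite directions within it: fl/fl 2 held 1.91 times the Itgax of fl/fl 1, and fl/fl 1 held 2.71 times the Itga6 of fl/fl 2. With fl/fl 1 left out, the log2 fold changes were −1.67 for Itgax, −3.44 for Itga6 and −1.22 for Itga5, and with fl/fl 2 left out they were −2.56, −1.95 and −1.01, all past the threshold in edgeR. With wt/wt 1 or wt/wt 2 left out, edgeR called 0 genes of the whole table (1576 and 2333 had an unadjusted p below the 0.05 threshold). The fitted changes were of similar size: Itgax was at −1.95 and −2.14, Itga6 at −2.55 and −2.51 and Itga5 at −0.94 and −1.28. On the same 3 libraries DESeq2 called Itgax and Itga6 both times, and Itga5 without wt/wt 2 (adjusted p = 0.00202) but not without wt/wt 1 (adjusted p = 0.112). Every edgeR call in the text was lost without either wt/wt library in this way.

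**Figure D5:**
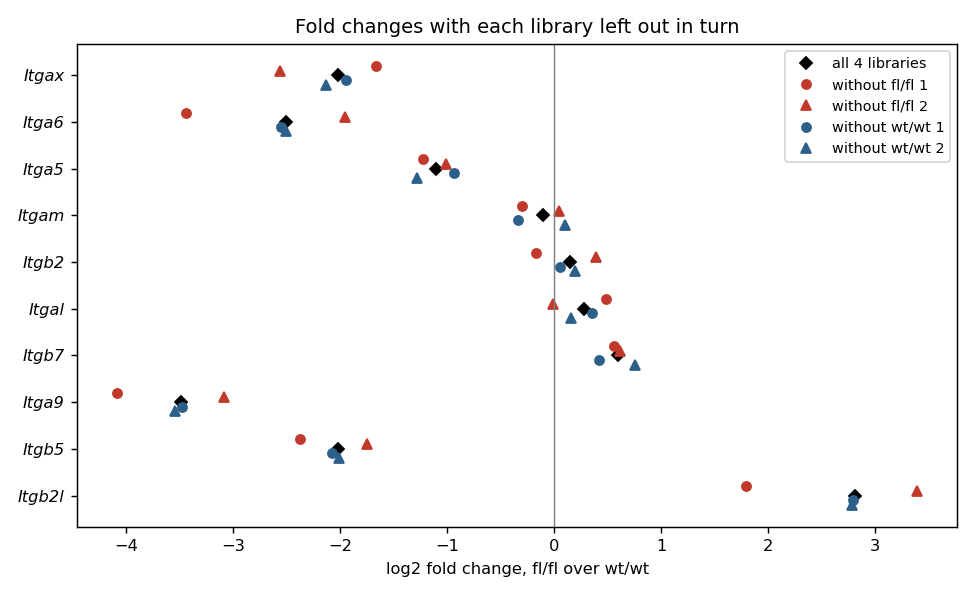
Log2 fold change, fl/fl over wt/wt, of 10 integrin chains with all 4 libraries (diamonds) and with each library left out in turn (red: a fl/fl library left out; blue: a wt/wt library left out). Itgax, Itga6 and Itga5 stay left of 0 in each fit, between −3.44 and −0.94, while Itgam, Itgb2 and Itgal cross 0.

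Of 25 tested genes that activate integrins or tie them to actin, 1 rose, 1 fell and 23 did not pass in edgeR, with a median log2 fold change of 0.18; over all tested genes 2.69% rose and 3.16% fell. At an unadjusted p under 0.05 edgeR had 10 of the 25, beside 3040 of all 13496 tested genes. DESeq2 called 4 higher and 2 lower, beside 784 higher and 834 lower of the 13496. EdgeR without the filter called 6 higher and 2 lower of 27, beside 1017 higher and 1071 lower of 22696. Rasgrp2, the exchange factor that activates Rap1, passed in 6 of 17 alternatives. Tln1 (talin), named with Fermt3 after its values were seen, was at 1019 and 916 CPM in fl/fl and at 953 and 934 CPM in wt/wt. Fermt3 (kindlin-3), the kindlin of blood cells, was at 410.0 and 316 CPM in fl/fl and at 345 and 385 CPM in wt/wt. Rap1b, the small GTPase upstream of talin, and Flna, a filamin that competes for β tails, were the most abundant per length and had log2 fold changes of −0.08 and 0.61 without passing. The gene that rose was Actn1, the actin cross-linker α-actinin-1, at 149 and 55.6 CPM in fl/fl and 13.7 and 22.1 CPM in wt/wt (log2 fold change 2.52 ± 0.48, SE; adjusted p = 0.0327, edgeR). Its log2 fold change became 1.59 when fl/fl 1 was left out and 3.06 when fl/fl 2 was left out. Like Itgb2l, Actn1 was higher in fl/fl 1, where the granulocyte marker sums were also higher, and their part in its level was not tested. The gene that fell was Parvb, β-parvin, a partner of integrin-linked kinase, at 40.5 and 31.4 CPM in fl/fl and 87.7 and 91.4 CPM in wt/wt (log2 fold change −1.32 ± 0.19, SE; adjusted p = 0.0182, edgeR). Ilk itself, of which 89.7% of exonic bases overlap genes on the opposite strand, had no counts in fl/fl and at most 0.135 CPM in wt/wt, and its level is not interpretable.

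Of 17 tested kinases and adaptors of integrin signalling, 1 fell, 16 did not pass and the median log2 fold change was 0.06. Over all tested genes 3.16% fell and 2.69% rose. Src, a tyrosine kinase that acts at integrin tails, was at 1.28 and 0.228 CPM in fl/fl and at 21.3 and 20.2 CPM in wt/wt (log2 fold change −4.77, adjusted p = 0.0141, edgeR). The fl/fl values rest on 22 and 4 counts, and the log2 fold change became −6.51 when fl/fl 1 was left out and −4.004 when fl/fl 2 was left out. Fgr and Lyn, Src-family kinases known to act downstream of β2 integrins and named after their values were seen, had log2 fold changes of 0.38 and 0.06 without passing. The adaptors Tyrobp and Fcer1g, the most abundant per length, had log2 fold changes of 0.18 and 0.20 without passing. With all 4 libraries, edgeR and limma-voom called 0 genes of this list higher and DESeq2 called 1. Over all 13496 tested genes DESeq2 called 5.81% higher, and 3040 had an unadjusted p under 0.05 in edgeR. Without the filter edgeR called 1017 of 22696 genes higher. EdgeR called 1 higher without the filter on low counts and 1 without fl/fl 2, and with all libraries 4 of the 17 were at an unadjusted p under 0.05 in either direction.

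Of 23 tested ligand genes, 2 fell, 2 rose and 19 did not pass, with a median log2 fold change of −0.41, beside 3.16% lower and 2.69% higher over all tested genes. DESeq2 called 2 higher and 4 lower, beside 784 higher and 834 lower of all 13496 tested genes. EdgeR without the filter called 2 higher and 7 lower of 26, beside 1017 higher and 1071 lower of 22696. In edgeR 12 of the 23 were at an unadjusted p under 0.05, beside 3040 of the 13496. Fn1, which encodes fibronectin, the ligand of α5β1, was at 1777 and 1266 CPM in fl/fl and at 4708 and 3806 CPM in wt/wt (log2 fold change −1.48, adjusted p = 0.0212, edgeR). Thbs1, the matrix protein thrombospondin-1, was at 1086 and 860 CPM in fl/fl and at 2841 and 2956 CPM in wt/wt (log2 fold change −1.57, adjusted p = 0.0135, edgeR). Tgfbi, the most abundant of these genes per length, was at 2855 and 1826 CPM in fl/fl and at 4493 and 4289 CPM in wt/wt. Tgfbi did not pass (log2 fold change −0.91, adjusted p = 0.0824, edgeR). Fn1 and its receptor chain gene Itga5 were thus both lower in both fl/fl libraries. Lamc1, the laminin γ1 chain, was at 23.4 and 16.8 CPM in fl/fl and at 5.53 and 4.13 CPM in wt/wt (log2 fold change 2.06, adjusted p = 0.0191, edgeR), while the laminin-binding Itga6 was lower. C3, the source of the iC3b ligand of αMβ2 and αXβ2, was at 788 and 805 CPM in fl/fl and at 498 and 467 CPM in wt/wt (log2 fold change 0.72, adjusted p = 0.0484, edgeR), and lost its call in 8 of 17 alternatives. Neutrophil marker sums, given above, were also higher in both fl/fl libraries. Within fl/fl those sums were higher in fl/fl 1, while C3 was nearly level. The part of neutrophils in this result was not tested.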

How the data were processed

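The deposited file holds whole-number read counts per gene for all 4 libraries, not normalized by the authors. The build GRCm38 and the tools STAR 2.5.0, Trimmomatic 0.33 and FastQC 0.11.5 are named in the submitters' processing notes. Which program counted reads, whether by strand and on which annotation, is not given in the sources used here. From these counts, 13496 of 55487 genes passed filterByExpr (minimum count 10) and were tested fl/fl over wt/wt with the edgeR 4.0.16 quasi-likelihood test (R 4.3.3), TMM scaling and Benjamini-Hochberg adjustment over all tested genes, with a threshold of 0.05. DESeq2 1.42.0 and limma-voom 3.58.1 were alternatives. Each SE was taken as |log2 fold change| divided by √F. An exact permutation test of 2 against 2 libraries cannot go below p = 0.333 and was not used. RPKM used merged exon lengths of GENCODE M21. Promoters were from RefSeq.

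On simulated counts for this comparison, over 13496 genes, the test recovered 58% of 50 genes changed by 1 on the log2 scale and 100% of 50 changed by 2, and called 4 of 13296 unchanged genes. The changed genes were all at or above median expression, so recovery below the median was not measured. All simulated libraries shared the same spread, while the real log2 differences between libraries had an SD of 0.81 in fl/fl and 0.63 in wt/wt. The members and gene lists were chosen with earlier results of these data known. All members are named. From each other reported list of integrin-related genes, up to 4 called genes with the smallest p and the 2 most abundant per length are named by rule. The rule did not cover the cell type markers. Other genes, such as uncalled integrin chains, defining cell markers at or near 0 and list members that differed from the rest, were named after their values were seen. Some results of the gene lists are not reported here.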

Additional observations from a re-analysis of the deposited data

How the results depend on the processing

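Itgax, Itga5 and Itga6 stayed lower in fl/fl under every alternative run and were called in each edgeR fit except those without a wt/wt library. The number of genes called was 2088 without the filter on low counts, 1618 with DESeq2 and 1215 with the replicate block. Leaving out a library gave 0 to 1477 genes in edgeR and 490 to 1390 in DESeq2, and 0 to 3 members called lower. Members called higher numbered 1, Itgb7, without the filter and with DESeq2. Directions reversed only among members that were not called. Without single libraries Itgam ranged from −0.33 to 0.10 in edgeR, and DESeq2 gave 0.047 without fl/fl 2 and 0.077 without wt/wt 2. Itgal ranged from −0.014 to 0.48 (DESeq2 −0.0097 without fl/fl 2), Itga4 from −0.041 to 0.48 (DESeq2 −0.037 without fl/fl 2) and Itgb2 from −0.17 to 0.39 (DESeq2 −0.16 without fl/fl 1). With the replicate block, 1 ligand gene was called higher and 5 lower. The causes were not tested. Deviations of libraries with the same number had a correlation of 0.02, so the numbers were not taken as pairs; with the replicate block the adjusted p was 0.00198 for Itgax, 0.00931 for Itga5, 0.00135 for Itga6 and 0.114 for Itgb7. DESeq2 on 3 libraries and the other lengths and sums for Itgam were added after seeing the data. With 2 libraries a genotype, changes of about 1 on the log2 scale can be missed.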
